A study of Mus musculus with 168 samples.

Results

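The levels of 10 synaptotagmin genes (Syt1, Syt2, Syt3, Syt4, Syt5, Syt6, Syt7, Syt9, Syt11 and Syt13) were followed in 5 populations of mouse motor neurons and in red nucleus neurons, at postnatal days 2, 5 and 10, in mice with spinal muscular atrophy (SMA) and in controls. They were chosen by name, and are 10 of the 17 numbered synaptotagmin genes and of the 39410 rows in the expression table. All 10 were in the table. SMA is a disease of motor neurons caused by too little SMN protein. The SMA mice were of the delta7 model (Smn-/-, SMN2+/+, SMNΔ7+/+), and the controls were littermates (Smn+/+, SMN2+/+, SMNΔ7+/+), so every mouse carried both human transgenes. Neurons of 6 populations were cut from frozen sections by laser: ocular (from the oculomotor and trochlear nuclei, which move the eyes), facial, hypoglossal (tongue), vagus, lumbar spinal cord and red nucleus. About 150 cells were pooled per tube, and a library was made from their polyA RNA. In all, 168 libraries gave 160 samples of mouse and population (72 control, 88 SMA) from 15 control and 19 SMA mice, with 3 to 7 mice in each of 36 groups. Levels are RPKM, reads per length of gene and per depth of library, so levels of different genes can be set side by side.

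Synaptotagmins are membrane proteins of vesicles that carry a pair of C2 domains in the cytoplasm. In some members these domains bind calcium and trigger fusion of the vesicle with the plasma membrane, through the SNARE proteins syntaxin, SNAP-25 and synaptobrevin. Syt1 and Syt2 are the fast calcium sensors of transmitter release. Syt2 is the main one at mature neuromuscular junctions and at many fast synapses of the brainstem and spinal cord. Syt4, Syt11 and Syt13 lack residues needed for usual calcium binding, and Syt7 is a slow sensor with high affinity for calcium.

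Library depth, recovered from the step size of low values, ran from 0.342 to 16.3 M reads (M as in Mb). The median was 5.89 M, and libraries held 12121 to 18419 genes above 0. The shallowest came from the red nucleus of mouse 252, a control of day 10. Smn1, the gene removed in SMA mice, lay between 4.32 and 63.3 RPKM in the 72 control samples, and was at 0 in 70 of 88 SMA samples with a highest value of 4.24. Chat, a defining gene of cholinergic motor neurons, had control means of 8.96 to 45.3 RPKM in the motor populations. In the red nucleus it was at 0 in every control mouse at day 2 and at most at 1.72 later. Fewer cells of a type and less RNA per cell cannot be told apart in such pools.

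Syt1 fell and Syt2 rose with age in the 4 somatic motor populations of controls. The sequences upstream of both genes are shown because their levels cross with age, in RefSeq promoter windows on GRCm38. Syt1 (ENSMUSG00000035864) lies on chromosome 10 from 108497650 to 109010982 on the minus strand, and Syt2 (ENSMUSG00000026452) on chromosome 1 from 134646677 to 134762593 on the plus strand. The window of Syt1 is the stretch just before the gene's annotated 5′ end, at chr10:109010983-109011225 on the minus strand. That of Syt2 is the 250 bases before the start of its shorter transcript, at chr1:134709050-134709299 on the plus strand, where the longer Syt2 transcripts have an intron. Both are printed 5′ to 3′ on the gene's strand, and capitals mark CG pairs. The last C of the Syt1 window belongs to a pair whose G lies past the printed end.
Syt1 upstream window: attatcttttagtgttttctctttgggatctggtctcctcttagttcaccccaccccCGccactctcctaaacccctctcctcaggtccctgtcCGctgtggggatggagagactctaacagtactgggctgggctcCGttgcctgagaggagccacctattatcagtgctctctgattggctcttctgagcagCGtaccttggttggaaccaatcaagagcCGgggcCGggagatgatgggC
Syt2 upstream window: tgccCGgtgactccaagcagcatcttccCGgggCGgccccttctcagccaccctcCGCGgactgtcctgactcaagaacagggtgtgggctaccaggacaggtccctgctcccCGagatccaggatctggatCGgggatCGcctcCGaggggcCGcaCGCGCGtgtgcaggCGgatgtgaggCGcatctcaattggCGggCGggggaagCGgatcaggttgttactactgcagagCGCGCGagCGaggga
The Syt1 stretch held 6 CG pairs and the Syt2 stretch 22. Over the full 250 bases, Syt1 had 8, and 59.7% of 32851 RefSeq mouse promoters had no more. For Syt2, 86.7% had no more, and the median over all promoters was 6. A second RefSeq window of Syt2, before the gene's annotated 5′ end, held 30. A second window of Syt1, inside the gene, held 5, and 49.6% of promoters had no more. The letters TATAAA, searched on both strands and present in 12.4% of all promoters, are in none of these windows.

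Syt1 fell between day 2 and day 10 in the 4 somatic motor populations of controls, those that move eyes, face, tongue and limbs. In lumbar neurons its level was 34.6, 42.9, 46.8 and 59.9 RPKM in the 4 control mice at day 2. It was 9.99, 18.6, 19.2, 23.9 and 24.1 RPKM at day 5. At day 10 it was 5.98, 9.65, 10.3 and 13.5 RPKM. No lumbar mouse of a later age reached the lowest mouse of day 2. On the log2(RPKM + 1) scale the change to day 10 was −2.14 (SE 0.282, limma adjusted p = 3.03e-06). In ocular neurons Syt1 went from 71.4, 75.7, 92.4 and 95.7 RPKM at day 2 to 31.7, 32.0, 34.8 and 35.2 RPKM at day 10. The ages did not overlap, and the change was −1.29 (SE 0.203, limma adjusted p = 0.000109). In facial neurons it went from 49.97, 54.8, 72.4, 78.1 and 78.6 RPKM to 16.5, 19.1, 26.9 and 27.4 RPKM (log2 change −1.54, SE 0.215, limma adjusted p = 3.62e-05). In hypoglossal neurons it went from 58.3, 63.6, 65.6 and 69.5 RPKM to 17.3, 30.3, 30.7 and 45.8 RPKM, again without overlap (log2 change −1.10, SE 0.26, limma adjusted p = 0.0102). Without the day 10 hypoglossal sample of mouse 247, the lowest of the 4, that change was −0.86 with a limma adjusted p of 0.0522.

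Vagus and red nucleus neurons had high Syt1 levels at both ages. Vagus motor neurons, which mainly serve inner organs, had 87.5, 93.6 and 133 RPKM at day 2 and 129, 155, 156.2 and 160.8 RPKM at day 10. These ranges overlapped, and the log2 change of 0.54 did not pass the test (limma adjusted p = 0.143). In red nucleus neurons Syt1 was 76.6, 88.4, 90.2 and 91.2 RPKM at day 2 and 50.2, 62.0, 79.8 and 85.6 RPKM at day 10, with a log2 change of −0.34 that did not pass either (limma adjusted p = 0.304).

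Syt2 was higher at day 10 than at day 2 in every control mouse of each of the 6 populations. The rise passed the test in 5 of them. Lumbar neurons had 58.97, 59.9, 66.1 and 70.4 RPKM at day 2 and 96.1, 108, 108.9 and 131 RPKM at day 10 (log2 change 0.78, SE 0.141, limma adjusted p = 0.000227). Ocular neurons had 34.4, 42.7, 46.98 and 52.7 RPKM at day 2 and 75.3, 80.3, 81.3 and 84.2 RPKM at day 10 (log2 change 0.86, SE 0.201, limma adjusted p = 0.00668). Facial neurons rose from 33.3, 35.1, 38.2, 38.5 and 41.8 RPKM to 70.7, 72.8, 75.8 and 95.2 RPKM (1.05, limma adjusted p = 0.000241). The ages were apart in each of these populations. Hypoglossal neurons rose from 30.0, 33.5, 42.4 and 46.2 RPKM to 57.4, 75.9, 79.7 and 83.3 RPKM (0.95, limma adjusted p = 0.000684). The change was widest in the red nucleus, from 15.5, 16.8, 18.4 and 27.2 RPKM to 65.98, 77.3, 78.9 and 79.95 RPKM (log2 change 1.93, SE 0.222, limma adjusted p = 4.9e-06). Vagus neurons stayed far below the other populations, with 1.22, 1.26 and 2.89 RPKM at day 2 and 3.67, 4.40, 5.88 and 7.41 RPKM at day 10. Their log2 change of 1.20 did not pass the test (limma adjusted p = 0.256).

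**Figure D1:**
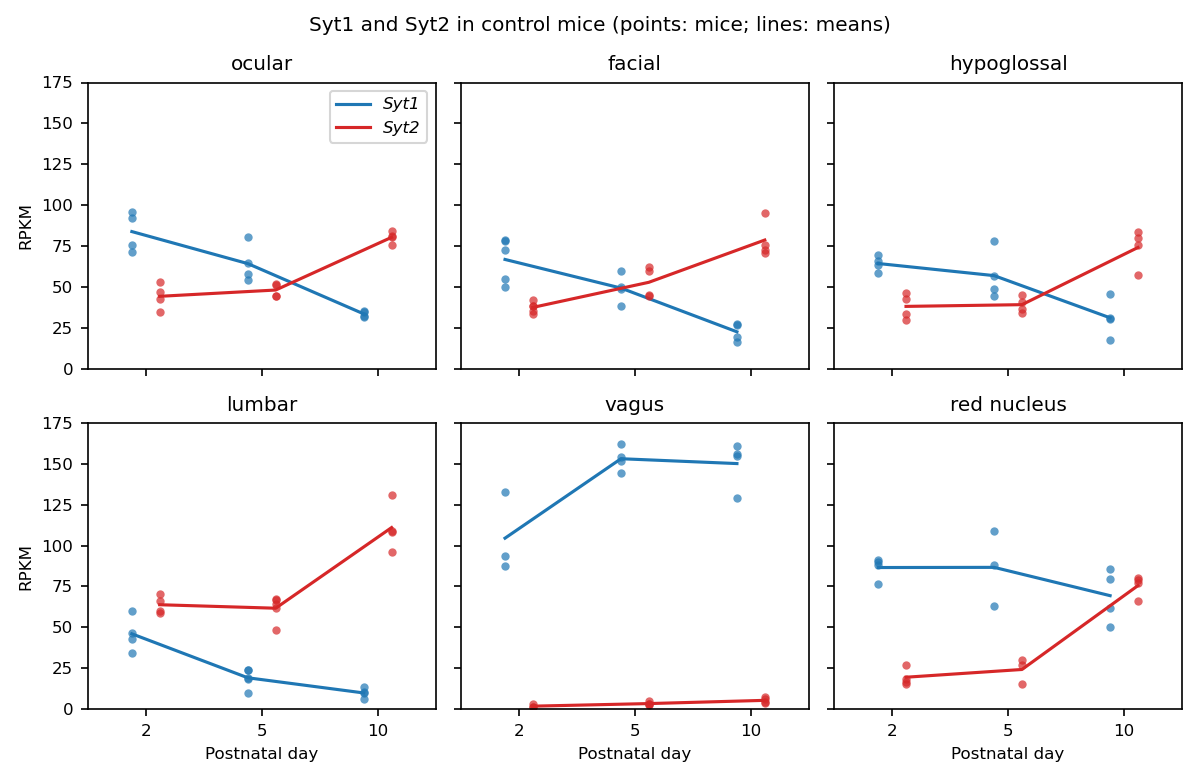
Syt1 and Syt2 RPKM in control mice by age, with 1 panel per population and 1 point per mouse. Syt1 is above Syt2 at day 2 in all populations but the lumbar one, and below it at day 10 in the ocular, facial, hypoglossal and lumbar populations.

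The ratio of Syt2 to Syt1 within a sample followed from these changes and is given as a description. In lumbar controls it averaged 1.46 at day 2, 3.62 at day 5 and 11.9 at day 10, and it was above 1 in all 4 mice at day 2. In the other somatic populations it was below 1 in every control at day 2, with means of 0.544 (ocular), 0.586 (facial) and 0.597 (hypoglossal). By day 10 it was above 1 in every control of these populations, with means of 2.404, 3.74 and 2.58. Syt2 was thus already above Syt1 at day 2 in lumbar neurons, and came to be above it between day 2 and day 10 in the cranial somatic populations. At day 5 the ratio was above 1 in 0 of 4 ocular, 2 of 4 facial and 1 of 4 hypoglossal controls. Red nucleus neurons went from a mean of 0.225 to 1.14, with 2 of 4 mice above 1 at day 10. Vagus neurons stayed at means of 0.0186, 0.0218 and 0.0359 over the 3 ages.

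**Figure D2:**
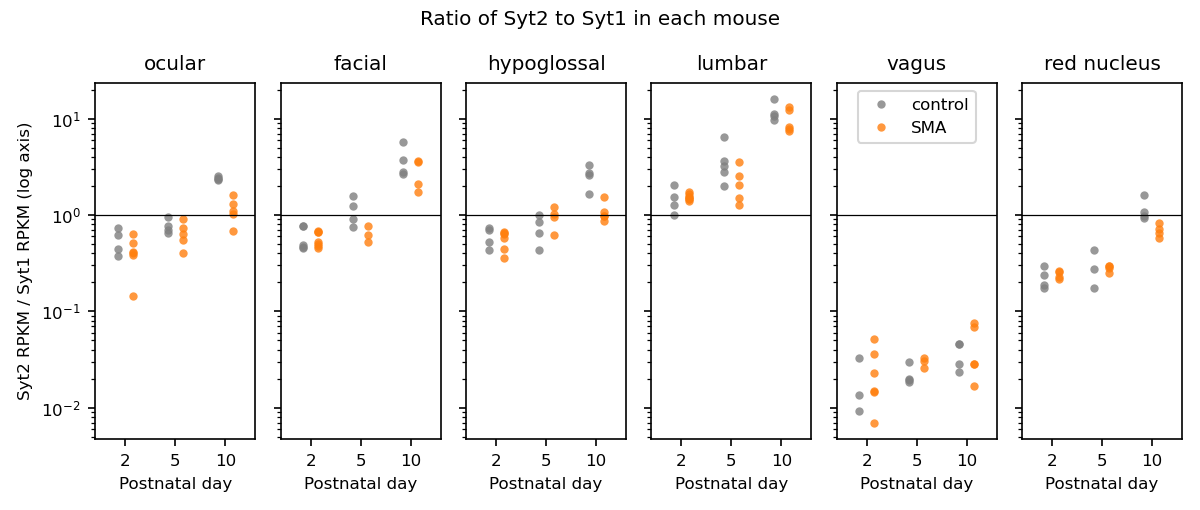
Ratio of Syt2 to Syt1 RPKM per mouse by age and genotype in each population, on a log axis. Lumbar controls start above 1, controls of the other somatic motor populations cross 1 after day 2, and vagus samples stay below 0.1.

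Syt3, Syt11 and Syt5 changed in the same populations, Syt3 and Syt11 upwards and Syt5 downwards. Syt3, a member with high affinity for calcium, had 68.9, 76.4, 77.3 and 77.8 RPKM in lumbar controls at day 2 and 123.2, 126.04, 132 and 172.2 RPKM at day 10. The ages were apart there, and the log2 change was 0.86 (SE 0.138, limma adjusted p = 5.32e-05). In ocular neurons it went from 30.1, 52.6, 62.0 and 63.1 RPKM to 97.04, 103, 108.5 and 108.6 RPKM (1.05, limma adjusted p = 0.00248), and in hypoglossal neurons from 36.5 to 49.3 RPKM up to 75.4 to 108 RPKM (1.11, limma adjusted p = 0.000697). In facial neurons the day 10 mice were far apart, at 56.4, 58.0, 100.6 and 163.1 RPKM against 38.4 to 56.2 RPKM at day 2 (0.84, limma adjusted p = 0.0433). That facial call was lost without any 1 of 6 control samples (mice 26, 240 and 244 at day 2, mouse 75 at day 5, mice 253 and 254 at day 10), with log2 changes of 0.53 to 0.84 and limma adjusted p of 0.0510 to 0.247. In the red nucleus Syt3 was 21.7 to 58.3 RPKM at day 2 and 49.4 to 116.9 RPKM at day 10, with overlap (1.07, limma adjusted p = 0.00824). Without the libraries with the fewest genes, only mouse 28 was left in the day 2 group, and this red nucleus change was 0.45.

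Syt11, a member thought to act in vesicle recycling and not as a calcium sensor, was among the most abundant. Its level in lumbar controls was 339.6, 348, 376 and 380.0 RPKM at day 2 and 441, 603, 645 and 682 RPKM at day 10 (log2 change 0.70, SE 0.127, limma adjusted p = 0.000274). In facial controls it rose from 176.5, 214.8, 281, 284 and 330.4 RPKM to 475, 476, 519 and 585 RPKM (1.02, limma adjusted p = 0.0003). The ages did not overlap in either population. The changes in ocular (0.88), hypoglossal (0.65) and red nucleus (0.95) neurons passed as well, with limma adjusted p of 0.00155, 0.0042 and 0.0012, and also without overlap.

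Syt5, found on synaptic and dense core vesicles, fell in 5 populations. In lumbar controls it went from 11.5, 11.9, 16.4 and 19.7 RPKM at day 2, through 3.28 to 7.80 RPKM at day 5, to 0, 0, 1.82 and 3.81 RPKM at day 10 (log2 change −3.02, SE 0.465, limma adjusted p = 3.14e-05). No lumbar mouse of days 5 or 10 reached the lowest of day 2, while days 5 and 10 overlapped. In red nucleus controls it went from 93.8, 103, 112.5 and 155 RPKM to 11.1, 15.1, 25.6 and 37.2 RPKM (−2.45, limma adjusted p = 2.85e-05). Without the libraries with the fewest genes, only mouse 28 was left in the day 2 group, and this red nucleus change was −1.83. The falls in ocular (−1.99), facial (−2.05) and hypoglossal (−1.23) neurons passed too, with limma adjusted p of 0.00541, 0.00154 and 0.0145. The facial ages overlapped, since mouse values at day 2 ran from 7.42 to 46.6 RPKM and at day 10 from 2.32 to 12.9 RPKM. The hypoglossal call was lost without mouse 244 at day 2 (limma adjusted p = 0.0503) or mouse 247 at day 10 (0.0611). Vagus neurons held Syt5 at 123.04, 135 and 138 RPKM at day 2 and at 108, 108.98, 125.2 and 125.9 RPKM at day 10.

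Syt4, which can oppose calcium-triggered release, was the most abundant member in many groups and fell in 3 populations. Red nucleus controls had 1155, 1345, 1897 and 1980.0 RPKM at day 2 and 236.6, 305, 385 and 654 RPKM at day 10 (log2 change −2.08, SE 0.27, limma adjusted p = 1.94e-05). Facial controls went from 667, 741, 771, 852 and 959 RPKM to 191.7, 194.4, 359 and 391 RPKM (−1.55, limma adjusted p = 6.83e-05), and hypoglossal controls from 983, 1006, 1159 and 1164 RPKM to 334, 389, 497 and 642 RPKM (−1.25, limma adjusted p = 0.00119). None of these ages overlapped. Vagus neurons had group means of 1255, 1232 and 1291 RPKM. Syt9, a close relative of the fast sensors, changed past the threshold in lumbar controls, from 6.18, 6.84, 8.34 and 11.2 RPKM to 0, 0.0815, 0.112 and 1.44 RPKM (−2.77, limma adjusted p = 0.000231). Syt7 fell there as well, from 15.7 to 23.0 RPKM down to 6.38 to 18.6 RPKM with overlap (−0.95, limma adjusted p = 0.00442). Syt13 and Syt6 passed in 0 of 6 populations.

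Counted over members and populations, 15 of 60 changes from day 2 to day 10 in controls were higher and 14 lower past the threshold (limma adjusted p under 0.05). In ocular neurons 3 members were higher and 2 lower, against 4.38% and 3.64% of all genes tested there. Facial neurons had 3 and 3 (2.6% and 2.76% of genes), and hypoglossal neurons 3 and 3 (2.43% and 2.68%). Lumbar neurons had 3 and 4 (4.76% and 7.25%), and red nucleus neurons 3 and 2 (5.72% and 5.42%). Vagus neurons had 0 and 0 (0.581% and 0.437%). Of the 60 changes, 37 had an unadjusted p under 0.05 (limma). The share of all genes with such a p is not given, so that count is not read as a result about the members. In the labels, 2 of the day 2 control mice carry numbers near those of the day 10 controls, and the others carry low ones. Library numbers were above 200 in all day 10 controls and in those 2 mice, so age and library number ran partly together. With day 2 controls limited to library numbers above 200, facial, hypoglossal, lumbar and vagus neurons kept mice 240 and 244. Hypoglossal Syt1 (−1.05, limma adjusted p = 0.0874), hypoglossal Syt5 (−1.31, 0.0643) and facial Syt3 (0.90, 0.165) then lost their calls. Ocular and red nucleus neurons kept only mouse 244 at that age, and counts over this fit are not given.

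**Figure D3:**
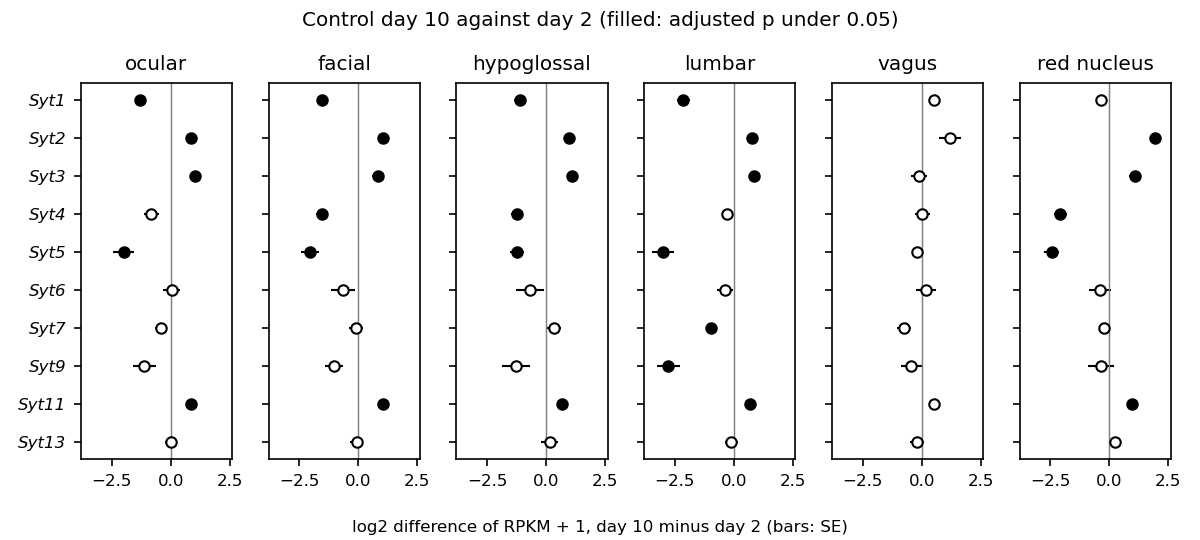
Change of each member from day 2 to day 10 in controls, on the log2(RPKM + 1) scale with limma standard errors, by population. Syt2, Syt3 and Syt11 lie to the side of a rise and Syt1 and Syt5 to that of a fall in the ocular, facial, hypoglossal and lumbar populations.

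Markers of oligodendrocytes, the myelin-forming cells, rose in the same samples. Of 7 listed markers, 7 ocular, 5 facial, 6 hypoglossal, 7 lumbar and 7 red nucleus genes were called higher in controls at day 10, and 0 of 6 tested in vagus neurons. Their summed level went from 19.3 to 50.6 RPKM over lumbar control mice at day 2 to 568.2 to 1260 RPKM at day 10. The ocular sum went from 22.8 to 35.4 up to 381.5 to 548.6 RPKM, and the red nucleus sum from 17.5 to 28.1 up to 332.9 to 682.5 RPKM. The facial sum went from 29.7 to 49.8 up to 254.6 to 299.1 RPKM and the hypoglossal one from 42.3 to 109.6 up to 197.5 to 872.3 RPKM. Vagus controls were at 53.4 to 113.9 RPKM at day 2 and 41.8 to 89.7 RPKM at day 10. Mobp was at 0 in the red nucleus at day 2. Summed markers of astrocytes (7 genes) moved as well, without overlap, in 3 populations of controls. They went from 620.5 to 984.7 up to 1470 to 1853 RPKM in the red nucleus and from 366.99 to 574.3 up to 607.4 to 800.5 RPKM in vagus neurons. In lumbar neurons they went from 1448 to 1775 down to 1051 to 1253 RPKM. The 7 genes did not move together: 2 were called higher and 2 lower in lumbar neurons. In the red nucleus 1 was called higher and 0 lower, and in vagus neurons 0 were called. The part of these cells in the synaptotagmin changes was not tested.

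The make-up of the 10 members' summed RPKM is given as a description. In ocular controls Syt4 made up 35.02% and Syt11 30.4% of the sum at day 2, and 18.0% and 49.4% at day 10. Facial controls went from 62.2% Syt4 and 20.2% Syt11 to 27.5% and 49.8%, and red nucleus controls from 73.02% and 9.50% to 34.2% and 34.3%. Syt1 fell from 10.9% to 4.04% of the ocular sum and from 5.14% to 0.909% of the lumbar sum. In vagus neurons Syt4 held 64.3%, 64.8% and 60.1% at the 3 ages.

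Motor populations of controls differed in most members. An F test over the 5 motor populations passed for 8 of 10 members at day 2 (19.3% of all genes passed), 9 at day 5 (18.9%) and 9 at day 10 (18.7%), with the lowest limma adjusted p, 4.26e-28, for Syt2 at day 10. Without vagus neurons it passed in 18 of 30 in place of 26, and the share of all genes passing that test is not given here. Syt2 then passed at day 2 (limma adjusted p = 0.00530) and not at day 5 (0.0694) or day 10 (0.140). Vagus against lumbar neurons at day 10 gave 5 members higher and 3 lower (15.7% of all genes passed in either direction). Syt5 was 5.94 higher on the log2 scale in vagus neurons (limma adjusted p = 1.31e-18), Syt1 3.84 (1.45e-21), Syt9 3.49 (3.5e-07), Syt4 2.37 (5.49e-09) and Syt6 1.45 (0.0132). Syt2 was 4.17 lower on that scale, a log2 difference of −4.17 (limma adjusted p = 6.5e-27), Syt3 stood at −1.88 (2.62e-07) and Syt11 at −0.56 (0.031). The Syt11 and Syt6 calls were lost without mouse 247 (limma adjusted p = 0.407 and 0.0516), mouse 252 (0.181 and 0.0898) or mouse 253 (0.0672 and 0.0504).

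The order of Syt1 at day 10 was vagus (mean 150.2 RPKM), red nucleus (69.4), ocular (33.4), hypoglossal (31.0), facial (22.5) and lumbar (9.87). Neighbours were apart except ocular and hypoglossal, and hypoglossal and facial, whose mice overlapped. At day 2 all neighbours in the order overlapped, from vagus (104.6 RPKM) to lumbar (46.0). The order of Syt2 at day 10 was lumbar (111.05 RPKM), ocular (80.3), facial (78.6), red nucleus (75.5), hypoglossal (74.1) and vagus (5.34). Lumbar and vagus neurons stood apart from their neighbours, and the 4 between them overlapped. Syt3 at day 10 had the order lumbar (138.3 RPKM), ocular (104.2), facial (94.5), hypoglossal (94.4), red nucleus (81.6) and vagus (41.3), where lumbar alone was apart from its neighbour. Syt4 at day 10 ran from vagus (1291 RPKM), apart from the rest, through hypoglossal (465.6), red nucleus (395.3), facial (284.1) and lumbar (237.9) to ocular (150.4), with overlap between neighbours.

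The remaining members followed other orders. Syt5 at day 10 ran from vagus (117.1 RPKM, apart from the rest) through red nucleus (22.2), hypoglossal (12.8), facial (6.14) and ocular (5.28) to lumbar (1.41), with neighbours below vagus overlapping. Syt7, the slow sensor linked to asynchronous release and vesicle refilling, was highest in the red nucleus at each age, with means of 52.02, 28.4 and 44.9 RPKM. It stood apart from the next population, ocular, at days 2 and 10. Syt13, which has little calcium binding, was highest in the red nucleus too, at 50.8, 50.01 and 58.7 RPKM. Its mice were apart from the next population at days 5 and 10. Syt11 ran from 592.7 RPKM (lumbar) to 388.5 RPKM (red nucleus) at day 10 with every neighbour overlapping. Syt9 was between 0.408 RPKM (lumbar) and 15.6 RPKM (vagus) at day 10. Syt6, whose protein is found mainly outside fast synapses, had control means between 0.0969 and 5.14 RPKM, highest in hypoglossal or vagus neurons, and single mice were at 0 in many groups.

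Ocular neurons, which are spared in this disease, were set against the vulnerable lumbar neurons. In controls 2 members passed at day 2 (6.45% of all genes), 3 at day 5 (4.95%) and 3 at day 10 (3.83%). Syt1 was higher in ocular neurons at all ages, by 0.87, 1.74 and 1.71 on the log2 scale (limma adjusted p = 0.0106, 1.16e-08 and 9.6e-08), and the mice of both populations were apart at each age. Without mouse 240 the day 2 difference was 0.74 (limma adjusted p = 0.0703). Syt11 was lower in ocular neurons at days 2 and 5, with log2 differences of −0.70 and −0.78 (limma adjusted p = 0.0125 and 0.00254). Its call was lost without mouse 26 (adjusted p = 0.0848) or 244 (0.113) at day 2, and without mouse 29 (0.0799) at day 5. Syt13 at day 5 (0.99, limma adjusted p = 0.00606), and Syt5 (1.67, 0.00698) and Syt7 (0.996, 0.00742) at day 10, were higher. Syt13 lost its call without mouse 71 (0.106) or 75 (0.0936), Syt5 without mouse 247 (0.140) or 254 (0.154), and Syt7 without mouse 247 (0.210) or 252 (0.0655). Some ocular libraries hold 1 of the nuclei alone. Without them only mouse 71 was left in the ocular control group of day 5, with differences of −0.51 for Syt11 and 1.24 for Syt13.

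Red nucleus neurons, which are not motor neurons, were compared with the mean of the 5 motor populations. In controls 5 members passed at each of days 2, 5 and 10, beside 13.1%, 7.59% and 11.5% of all genes. Syt13 was higher by 1.41, 1.68 and 1.69 on the log2 scale (limma adjusted p = 1.78e-07, 5.3e-08 and 1.02e-09) and Syt7 by 1.48, 0.85 and 1.64 (1.8e-08, 0.00554 and 8.02e-10). Syt5 was higher by 1.798, 1.57 and 1.04 (limma adjusted p = 2.14e-05, 0.00152 and 0.0202). Syt4 was higher at day 2 (1.40, limma adjusted p = 7.38e-06), Syt1 at days 5 and 10 (0.62 and 1.07, 0.0394 and 4.91e-06) and Syt2 at day 10 (0.60, 0.00288). Syt11 was lower at days 2 and 5 (−0.52 and −0.55, limma adjusted p = 0.0095 and 0.0227). At day 10 the Syt5 call was lost without mouse 253 (adjusted p = 0.111) or 254 (0.145). At day 5 the Syt7 call was lost without mouse 34 (0.0671) or 75 (0.0763), the Syt11 call without mouse 30 (0.120), 34 (0.251) or 71 (0.0563), and the Syt1 call without mouse 34 (0.128), 71 (0.0501), 75 (0.487) or 254 (0.0501). At day 2 the Syt11 call was lost without mouse 244 (0.0605). Without the libraries with the fewest genes, the red nucleus kept only mouse 28 at day 2. The log2 differences were then −0.48 for Syt11, 1.24 for Syt4 and 1.83 for Syt5.

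The change from day 2 to day 10 differed between the 5 motor populations for Syt1 (F test, limma adjusted p = 1.66e-06) and Syt5 (0.0261), 2 of 10 members against 1.69% of all genes. Against lumbar neurons the vagus change was 2.67 higher on the log2 scale for Syt1 (SE 0.334, limma adjusted p = 1.22e-07) and 2.84 higher for Syt5 (SE 0.605, 0.00474). Among the 4 somatic populations alone 0 of 10 members passed and 4 had an unadjusted p under 0.05 (limma, lowest adjusted p = 0.202 for Syt7, and 0.325 for Syt1). The share of all genes is not given for that test. Syt2 gave an adjusted p of 0.934 over the 5 populations. Syt5 lost its call without mouse 240 (adjusted p = 0.0983), 244 (0.123), 252 (0.05005) or 254 (0.168), and Syt1 kept an adjusted p under 0.05 in each of these fits.

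In SMA mice Syt1 fell in 3 populations. Lumbar SMA neurons had a lowest, median and highest level of 34.9, 43.9 and 46.9 RPKM at day 2 (7 mice), and 6.22, 6.60, 10.95, 12.03 and 13.0 RPKM at day 10 (log2 change −2.06, SE 0.234, limma adjusted p = 1.83e-07). Facial SMA neurons had 61.6, 79.95 and 94.8 RPKM at day 2 (7 mice), and 17.4, 17.9, 31.2 and 34.1 RPKM at day 10 (−1.68, limma adjusted p = 4.16e-06). The ages did not overlap in either. Ocular SMA neurons had 73.9 to 164.2 RPKM at day 2 and 42.8 to 60.1 RPKM at day 10 (−0.95, limma adjusted p = 0.000636). Over all members 6 changes were higher and 13 lower of 60. Ocular neurons had 3 of 10 members called (6.66% of all genes), facial 2 (6.73%), hypoglossal 1 (4.31%), lumbar 7 (18.4%), vagus 2 (3.31%) and red nucleus 4 (5.06%).

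Syt2 rose past the threshold in SMA in lumbar neurons, from 58.1 to 71.7 RPKM up to 80.2 to 101.4 RPKM (0.43, SE 0.116, limma adjusted p = 0.0089), and in the red nucleus, from 20.1 to 25.6 RPKM up to 53.9 to 60.7 RPKM (1.35, SE 0.222, limma adjusted p = 0.000686). Syt11 rose in lumbar (0.74, limma adjusted p = 7.87e-06), red nucleus (1.07, 0.000947) and vagus neurons (0.53, 0.0277). Syt5 fell in lumbar (−2.42, limma adjusted p = 3.48e-05), red nucleus (−1.78, 0.00203) and ocular neurons (−1.31, 0.0375). Syt4 fell in facial (−1.05, limma adjusted p = 0.00244) and red nucleus neurons (−1.07, 0.0222). In lumbar neurons Syt6 (−1.12, limma adjusted p = 0.00399), Syt7 (−0.92, 0.000693) and Syt9 (−1.93, 0.00109) fell, Syt9 fell in ocular (−1.43, 0.0397), Syt7 fell in vagus (−0.87, 0.039), and Syt13 rose in hypoglossal neurons (1.07, 0.0365). Syt3 was called in 0 of 6 SMA populations. Of these calls, 6 were lost on leaving out 1 SMA sample. They were ocular Syt5 (mice 38, 206 and 207 at day 2, 249, 250 and 258 at day 10, limma adjusted p up to 0.109) and ocular Syt9 (38, 206, 209 and 211 at day 2, 196, 199, 250 and 258 at day 10, up to 0.101). Vagus Syt7 was lost without mice 18, 206, 207 or 209 at day 2 or 249, 250 or 258 at day 10 (limma adjusted p up to 0.118), and vagus Syt11 without 199, 250 or 258 at day 10 (up to 0.0590). Hypoglossal Syt13 was lost without mice 16, 18, 206 or 209 at day 2 or 196, 250 or 258 at day 10 (limma adjusted p up to 0.127), and red nucleus Syt4 without 207, 209 or 211 at day 2 or 196, 199 or 258 at day 10 (up to 0.0681).

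SMA and control neurons of the same age did not differ past the threshold in any member: 0 of 180 comparisons passed, and 24 had an unadjusted p under 0.05 (limma; 7 at day 2, 5 at day 5 and 12 at day 10). The share of all genes with an unadjusted p under 0.05 is not given, so that count is not read further. Few genes of any kind passed the adjusted threshold. At day 2 the share of all genes was 0.132% (ocular), 0.0232% (facial), 0.0364% (hypoglossal), 0.0122% (lumbar), 0.00599% (vagus) and 0.0434% (red nucleus). At day 5 it was 0.0252%, 0.0695%, 0.00607%, 0.0488%, 0.00599% and 0.0062% in the same order. At day 10 it was 0.359%, 0.666%, 0.0728%, 0.775%, 0.00599% and 0.0124%. The lowest limma adjusted p was 0.150, for Syt4 in hypoglossal neurons at day 2. There it was 399.8, 574.9 and 937 RPKM (lowest, median and highest of 6 SMA mice) against 983, 1006, 1159 and 1164 RPKM in controls, a log2 difference of −0.86. The mice of both genotypes were apart. In the red nucleus at day 2 Syt4 was 612, 760.2, 834 and 856 RPKM in SMA against 1155 to 1980.0 RPKM in controls, also apart, with a log2 difference of −1.03 and a limma adjusted p of 0.224.

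At day 10 Syt2 was at a lower mean in SMA in 5 populations, with no call. Ocular SMA neurons had 41.4, 56.9, 59.4, 68.3 and 74.8 RPKM against 75.3 to 84.2 RPKM in controls, without overlap (log2 difference −0.44, SE 0.19, limma adjusted p = 0.780). Facial SMA neurons had 59.04, 61.8, 64.9 and 64.9 RPKM against 70.7 to 95.2 RPKM (−0.31, limma adjusted p = 0.754), and red nucleus SMA neurons 53.9, 58.2, 59.1 and 60.7 RPKM against 65.98 to 79.95 RPKM (−0.37, limma adjusted p = 0.895). The genotypes were apart in these as well. Hypoglossal (−0.36) and lumbar (−0.32) mice overlapped, with limma adjusted p of 0.681 and 0.363. In vagus neurons the difference was 0.03. The summed oligodendrocyte markers were at 344.5 to 596.2 RPKM in ocular SMA mice and 381.5 to 548.6 RPKM in ocular controls at that age. Motor neuron markers (4 genes summed) were lower in ocular SMA mice, at 452.5 to 875.1 RPKM against 925.99 to 1024 RPKM, without overlap. The 2 red nucleus markers, Pou4f1 and Slc17a6, summed to 9.07, 19.2, 23.8, 32.99 and 176.9 RPKM in ocular SMA mice. Controls were at 4.74 to 16.9 RPKM, and the highest value was that of SMA mouse 250. Without that mouse the ocular log2 difference was −0.52 for Syt2, 0.64 for Syt1 and −0.46 for Syt3. In hypoglossal neurons the red nucleus markers were at 17.7 to 27.0 RPKM in SMA and 3.46 to 13.1 RPKM in controls, also apart. Pou4f1 had a mean of 1.33 RPKM in those controls, where the sum had a mean of 9.05 RPKM. Summed inhibitory neuron markers (4 genes) were at 29.4 to 106.7 RPKM in hypoglossal SMA mice and 2.61 to 58.1 RPKM in controls, with overlap. The part of these markers in the differences of Syt1, Syt2 and Syt3 and in the Syt2 to Syt1 ratio was not tested.

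Syt1 and Syt5 were at higher means in some SMA populations at day 10, again with no call. Ocular Syt1 was 42.8, 51.7, 57.9, 57.9 and 60.1 RPKM in SMA against 31.7 to 35.2 RPKM in controls, without overlap (0.67, SE 0.193, limma adjusted p = 0.229). Hypoglossal Syt1 was 39.9, 47.7, 53.3, 61.1 and 68.2 RPKM against 17.3 to 45.8 RPKM (0.83, SE 0.247, limma adjusted p = 0.365). The lumbar difference was −0.02 and the facial one 0.13, both smaller than their SE of 0.268 and 0.227. Syt5 differed by 1.10 in ocular, 1.17 in facial, 0.70 in hypoglossal, 0.24 in lumbar and 0.64 in red nucleus neurons, with limma adjusted p of 0.333 to 0.920 and overlapping mice. Ocular Syt3 was 64.03, 68.0, 72.3, 84.99 and 87.3 RPKM in SMA against 97.04 to 108.6 RPKM in controls, also apart (−0.47, limma adjusted p = 0.780).

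The Syt2 to Syt1 ratio at day 10 ranged from 0.688 to 1.60 in ocular SMA mice and from 2.31 to 2.54 in controls. In hypoglossal neurons it was 0.864 to 1.54 against 1.66 to 3.31, and in red nucleus neurons 0.574 to 0.822 against 0.922 to 1.59. SMA and control mice were apart in these 3 populations. Facial (1.73 to 3.63 against 2.66 to 5.78) and lumbar mice (7.46 to 13.1 against 9.66 to 16.1) overlapped. The ratio was not tested.

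The difference between genotypes changed with age past the threshold in 0 of 60 tests (limma F test over both age terms, 9 with an unadjusted p under 0.05, lowest adjusted p = 0.394 for Syt3 in lumbar neurons). Of all genes, 0.101% passed the adjusted threshold in ocular and 0.104% in facial neurons, and 0% in the other populations. Shares of all genes at an unadjusted p under 0.05 are not given.

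Other genes of the release machinery were followed as lists in control neurons between day 2 and day 10. Of 23 partners of synaptotagmins in vesicle fusion, 5 of 23 tested were higher and 2 lower in ocular neurons, 8 and 2 of 22 in facial, 5 and 1 of 22 in hypoglossal, 6 and 5 of 22 in lumbar, 1 and 0 of 22 in vagus, and 7 and 1 of 22 in red nucleus neurons. The median log2 change of the list was −0.06 in ocular neurons and 0.25, 0.43, 0.10, 0.27 and 0.47 in the others in that order, beside 0.06, −0.04, −0.02, −0.10, −0.07 and −0.01 for all genes. Rph3a, a Rab3 effector on vesicles, rose by 1.34 on the log2 scale in ocular, 1.32 in hypoglossal and 3.25 in red nucleus neurons (limma adjusted p = 2.69e-05, 7.96e-06 and 1.94e-05). Stx1a, a syntaxin of the plasma membrane, fell by 2.88 in ocular, 1.57 in facial and 2.93 in lumbar neurons (limma adjusted p = 3.35e-05, 2.54e-05 and 8.82e-07). Unc13b, a vesicle priming factor, fell in facial (−2.11, limma adjusted p = 0.00264) and hypoglossal neurons (−1.54, 0.0297), and Cplx2, a complexin, in lumbar neurons (−1.66, 2.36e-06). Rph3a was also called higher in facial and lumbar neurons, and Unc13b lower in lumbar and red nucleus neurons. In vagus neurons Sv2a, a vesicle glycoprotein that binds synaptotagmin, rose (0.96, limma adjusted p = 0.0177).

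Of 6 vesicle membrane genes tested, 3, 4, 2, 2, 1 and 3 were higher in ocular, facial, hypoglossal, lumbar, vagus and red nucleus neurons, and 0 lower. Syngr1, a synaptogyrin, rose by 1.20 in hypoglossal neurons (limma adjusted p = 0.00534) and Syp, synaptophysin, by 0.81 in ocular neurons (0.000324). Both genes were called higher in ocular, facial, hypoglossal, lumbar and red nucleus neurons. Of 14 dense core vesicle genes 3, 1, 2, 2, 0 and 1 were higher, and 1 was lower, in lumbar neurons. Of all genes tested, 4.38%, 2.6%, 2.43%, 4.76%, 0.581% and 5.72% were called higher in the same order of populations. Those called lower were 3.64%, 2.76%, 2.68%, 7.25%, 0.437% and 5.42%. Whether these lists differ from all genes was not tested. Among the 7 other synaptotagmins 3 to 5 were tested per population. Syt16, which lacks the usual calcium sites, fell in ocular (−2.21, limma adjusted p = 7.02e-06), lumbar (−2.03, 2.77e-05), red nucleus (−1.43, 0.000974) and hypoglossal neurons (−0.95, 0.00632). Syt12 fell in lumbar neurons (−0.93, limma adjusted p = 0.00961) and rose in the red nucleus (1.84, 0.027). Syt8 was listed at 0 in every control sample. In SMA against control at day 10, 1 gene of these 4 lists passed, Rph3a in facial neurons, at a mean of 67.9 RPKM in SMA and 117.7 RPKM in controls (−0.78, limma adjusted p = 0.0452). Of all genes tested in facial neurons, 0.666% passed.

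Genes whose pattern was most like each member were ranked by Pearson's r over the 18 control group means, among 9170 genes. The means share mice and libraries, so r is a description. Syt2 was most like Scn8a (r = 0.990), a sodium channel of axons, and Vamp1 (0.989), the synaptobrevin of the neuromuscular junction. Syt1 was most like Syt5 (0.920) and Usp11 (0.907), and Syt5 was like D430019H16Rik (0.965). Syt3 was like Lrrc49 (0.948). Syt11 was most like Fbxo2 (0.954) and Pet100 (0.941), Syt4 like Ap2a2 (0.915) and Ctxn1 (0.901), and Syt6 like Jag1 (0.924) and Hoxb5 (0.913). Syt7 was most like Akap1 (0.907) and Dmrtb1 (0.877), Syt9 like Neo1 (0.897) and Nrbp2 (0.891), and Syt13 like Klhdc8a (0.906) and Nrn1 (0.899).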

How the data were processed

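The authors deposited a table of RPKM with 39410 rows and 168 libraries. Per the labels' protocols, libraries were made by the Smart-seq2 method, which copies whole transcripts, with Tn5 tagmentation. The submitters' processing notes name STAR 2.4.1c and the builds mm10 and hg19, and the annotation and use of strand are not given in the sources used here. Lumbar control libraries of day 5 include reads of an earlier deposit, per the labels. RPKM of libraries of a mouse and population were averaged, which gave 160 samples. Positions are from GENCODE M21 (GRCm38).

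Tests used limma 3.58.1 (lmFit, eBayes with trend, R 4.3.3) on log2(RPKM + 1), which understates changes of low genes. Genes needed an RPKM of at least 1 in as many samples as the smallest group. Each population was fitted with its 6 groups, and controls of all populations with 18 groups (19621 genes). P-values were two-sided and adjusted by Benjamini and Hochberg over all genes within a contrast, with a threshold of 0.05, and the scripts were tested on simulated data. All 10 members are named, genes of other lists only as examples (the 2 with the largest change among those called, and Syt8 after its values were seen), and the 2 genes of highest Pearson's r to each member, of which some are not reported here. The members and lists were chosen with earlier results of these data known. Depth came from the value of 1 read in genes of a single transcript. Mouse numbers mark 1 animal across populations, per the labels, so population contrasts share part of their animals. Their tests took samples of a mouse as independent, except in the fit with the mouse as a block. Deviations of the same control mouse correlated at −0.0437 to 0.152 over 150 pairs (median 0.0325), against a median of −0.00758 over 568 pairs of other mice. Library pairs correlated at most at 0.976, and none was taken as a repeat. Alternatives were a pseudocount of 0.1, no filter, quantile normalization, libraries kept apart, fewer libraries or groups, the mouse as a block, and leaving out each replicate. A fit over the 4 somatic populations was added after seeing the data.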

Additional observations from a re-analysis of the deposited data

Results flagged for a closer look

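Dixon's test was run for each member in each group of 4 or more mice, and marked 26 of these 320 sets of values (8.13%), where chance alone marks about 1 in 20. In controls, single mice stood apart as follows, in RPKM. Syt11 in the red nucleus of mouse 244 at day 2 was low at 162.3 against at least 204.7 in the others, and Syt3 in lumbar neurons of that mouse was low at 68.9. Mouse 247 at day 10 was low in hypoglossal neurons for Syt13 (9.17) and Syt7 (8.95). Syt13 was high in facial neurons of mouse 240 (16.6) and in lumbar neurons of mouse 28 (25.5) at day 2. Syt9 was low in hypoglossal neurons of mouse 26 at day 2 (1.13) and of mouse 71 at day 5 (3.50), and high in lumbar neurons of mouse 253 at day 10 (1.44). Syt2 was high in vagus neurons of mouse 71 at day 5 (4.81). Syt6 was high at day 10 in facial neurons of mouse 253 (1.802) and in the red nucleus of mouse 254 (0.425), both low levels.

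Among SMA mice at day 2, mouse 207 was high for Syt13 (57.3) and Syt7 (30.5) in vagus neurons and for Syt2 (56.2) in hypoglossal neurons, and mouse 211 was low for Syt1 in vagus neurons (92.2). At day 5, mouse 31 was high for Syt1 in hypoglossal neurons (80.6) and for Syt4 in lumbar neurons (468.1). In ocular neurons of day 5, mouse 76 was high for Syt6 (4.08) and Syt7 (27.2) and low for Syt5 (10.00), and mouse 77 was low for Syt2 (33.8). Syt13 in the red nucleus of mouse 61 was high (71.9). At day 10, mouse 250 was high in ocular neurons for Syt13 (49.5) and Syt7 (35.01), where its summed red nucleus markers were at 176.9, and mouse 249 was high for Syt5 in facial neurons (19.9).

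The change from day 2 to day 10 differed between control motor populations for Syt1 (limma adjusted p = 1.66e-06) and Syt5 (0.0261), as the test of that difference showed. In vagus neurons alone, neither change passed the test.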

How the results depend on the processing

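Of 29 changes with age called in controls, 21 were called in every fit run, as were 13 of 19 in SMA, and 0 of these changed sign. Some of these fits left few mice. With day 2 controls of library numbers above 200, ocular and red nucleus neurons kept only control mouse 244 at day 2. Without the libraries with the fewest genes, red nucleus controls kept only mouse 28 at that age. Calls of populations left with a single mouse at an age are not listed. Motor populations differed in their change with age for 1 member with each library as a sample and for 0 with the somatic populations alone. Leaving out 1 replicate gave 14 to 16 higher and 12 to 15 lower calls with age in controls, 5 to 8 and 11 to 14 in SMA, 0 to 0 between genotypes and for genotype by age, 24 to 27 between motor populations, 6 to 8 for ocular against lumbar, 12 to 16 for the red nucleus, and 1 to 2 for the change between populations (1 without mouse 240, 244, 252 or 254). With the mouse as a replicate block these counts were 26, 8, 15 and 2, as without it, and the within-mouse correlation was 0.0339. Uncalled differences between genotypes at day 10 were followed only for Syt1, Syt2, Syt3 and Syt5 outside vagus neurons, which was not planned beforehand. Of these, 4 turned in sign, and the other members were not examined. Leaving out 1 mouse, Syt1 in facial neurons ran from −0.0367 (without SMA 196) to 0.272, below 0 also without control 253 (−0.00690). Syt3 in facial neurons ran from −0.405 to 0.1005 (without control 253), and Syt5 in lumbar neurons from −0.0782 (without control 247 or 254) to 0.677. Syt1 in lumbar neurons ran from −0.217 to 0.137 (without control 253), and was 0.0150 without control 254 and 0.0925 and 0.111 without SMA 250 or 258. The cause was not tested.

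When a fit held the groups compared alone, control calls were lost for ocular Syt11 (adjusted p = 0.0572), hypoglossal Syt1 (0.0623) and Syt11 (0.0832), lumbar Syt7 (0.0547), facial Syt3 (0.146) and red nucleus Syt3 (0.105). The all-gene median was −0.10 for the lumbar control change as deposited, and at most 0.13 elsewhere, against about 0 after quantile normalization. That normalization also removed calls. At day 2 in controls, Syt11 lost its call for ocular against lumbar (−0.52, limma adjusted p = 0.108) and for the red nucleus (−0.41, 0.0685). In SMA vagus neurons the changes with age of Syt11 (0.34, limma adjusted p = 0.241) and Syt7 (−0.78, 0.0670) lost theirs. Counting error limits Syt6, which was near 0 in many samples.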
